A study of Mus musculus with 8 samples.

Results

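The genes described here are 10 that neurons of nearly every kind use and that build or mark their cytoskeleton and identity. They were chosen by name, and all 10 were found among the 14353 genes of the deposited table. Nefl, Nefm, Nefh and Ina encode subunits of the neuronal intermediate filament, Tubb3 a beta-tubulin, Stmn2, Map2 and Mapt proteins that bind tubulin or microtubules, Rbfox3 the neuronal nuclear protein NeuN, and Gap43 a membrane protein of growth cones and axon endings. Each of the 10 was over 1 CPM in all 8 libraries, so none was lost to a filter on low values. CPM scales a gene's reads to the total reads counted in a library, a total the authors adjusted with TMM size factors.

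The study collected mRNA from the ventral pallidum (VP), a basal forebrain output region of the reward system, of untreated mice that were homozygous for VGluT2-Cre and heterozygous for Rpl22, the RiboTag allele. Cre is made from the vGluT2 (Slc17a6) locus, and where it acts the ribosomal protein RPL22 carries a hemagglutinin (HA) epitope. Ribosome-bound mRNA of the tagged cells was collected with an antibody against HA (the TRAP fraction) and compared with mRNA of the lysate before the beads were added (the INPUT fraction). Each fraction has 1 library from each of 4 pools, named VP1.6, VP2.2, VP2.6 and, the last, VP2.11. The pools held 7 to 11 mice of both sexes, 38 in all, aged 9 to 12 weeks in VP1.6 and 10 to 16 weeks in the others. Both fractions thus share animals and genotype, a pool is the unit of replication (n = 4), and the tag marks whichever cells carry Cre activity. The labels give the INPUT fraction as all neurons and glia and the TRAP fraction as glutamatergic neurons, whereas the study's methods also speak of an unbound fraction where sequencing is described. The same methods say that some neighbouring striatum may have been taken with the VP.

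Neurofilaments are heteropolymers of light, medium and heavy chains with alpha-internexin (Ina), and they fill large, myelinated axons, where they set axon caliber. Microtubules run beside them as tracks for transport. Tau, the product of Mapt, binds them mainly in axons, and MAP2 mainly in cell bodies and dendrites. Neurons of many transmitter types hold these proteins, so levels of the genes in TRAP relative to INPUT can depend on how much tissue RNA is neuronal. They can also depend on how much of each mRNA a given neuron type carries and how much of it is on ribosomes. In such bulk samples fewer cells of a type and less RNA per cell cannot be told apart.

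Slc17a6 itself was 2.55 ± 0.24 (SE) higher in TRAP on the log2 scale, with differences of 1.84 to 3.17 in the 4 pools (limma, adjusted p = 7.3e-06). Among the other glutamatergic markers, Slc17a7 rose by 1.45 ± 0.24 (SE, limma, adjusted p = 6.2e-04) and Slc17a8 did not pass (-0.03). Cell type markers were read as summed CPM over each marker list. Oligodendrocyte markers summed to 900 to 1631 CPM in TRAP and 3506 to 3807 in INPUT, with 4 of 5 markers lower. Astrocyte markers came to 150 to 253 against 343 to 502 CPM, with 4 of 5 lower, and microglial markers to 23.7 to 31.8 against 78.8 to 126, with 3 of 5 lower. Markers of striatal spiny neurons came to 229 to 305 CPM in TRAP and 444 to 611 in INPUT, with 4 of 5 lower. Summed markers of GABAergic neurons were 584 CPM in INPUT VP2.2 against 1214 to 1394 in the other INPUT libraries, and 918 to 1573 in TRAP. Most of that sum came from Gad1 and Gad2, which did not pass (0.30 and -0.05 on the log2 scale). Slc32a1, the gene of the vesicular GABA transporter, was lower in TRAP (-1.26 ± 0.30, SE, limma, adjusted p = 0.0055). Other lists were higher in TRAP or mixed, apart from Pvalb, which was lower. Markers of oligodendrocyte precursors summed to 18.4 to 38.0 CPM in TRAP and 8.35 to 22.5 in INPUT, where Cspg4 rose by 1.98 ± 0.35 on the log2 scale (SE, limma, adjusted p = 8.8e-04) and Pdgfra did not pass (-0.28). Endothelial markers came to 5.60 to 28.9 against 1.46 to 5.82 CPM, where Flt1 rose by 2.37 ± 0.55 (adjusted p = 0.0047) and Pecam1 did not pass (0.59). Cholinergic markers came to 87.8 to 137 against 39.4 to 84.1 CPM, with 0 of 3 called higher and Slc18a3 lower. Pvalb came to 34.5 to 65.9 against 96.9 to 179 CPM, a log2 difference of -1.38 ± 0.25 (SE, limma, adjusted p = 8.9e-04). The part of these markers in the results on the 10 genes was not tested. Total counts were not used here. Steps of whole reads in low values of VP2.2 and VP2.6 put the adjusted library total of TRAP at an estimated 0.331 and 0.503 of that of INPUT. The adjustment is part of these ratios, so they are not depth alone.

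Of the 10 genes, 7 rose in TRAP, 0 fell and 3 did not pass (limma with the pool as a block, adjusted p under 0.05). Of all 14249 genes tested, 15.4% were called higher and 16.8% lower by the same fit. Nefm, Nefh, Ina, Mapt, Nefl, Tubb3 and Stmn2 rose, and Rbfox3, Gap43 and Map2 did not pass. The median difference of the 10 genes was 1.34 on the log2 scale, against -0.05 over all genes tested. The same 7 genes were higher in TRAP in every pool, and their 4 TRAP values all lay above their 4 INPUT values, as was so for 23.3% of all genes tested. Without the block, 8 of the 10 were called higher and 1 lower, beside 23.2% and 24.8% of all genes. Rbfox3 and Map2 were the genes that gained a call there. CPM is relative to the adjusted total of a library, so higher and lower mean relative to its other mRNAs.

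**Figure D1:**
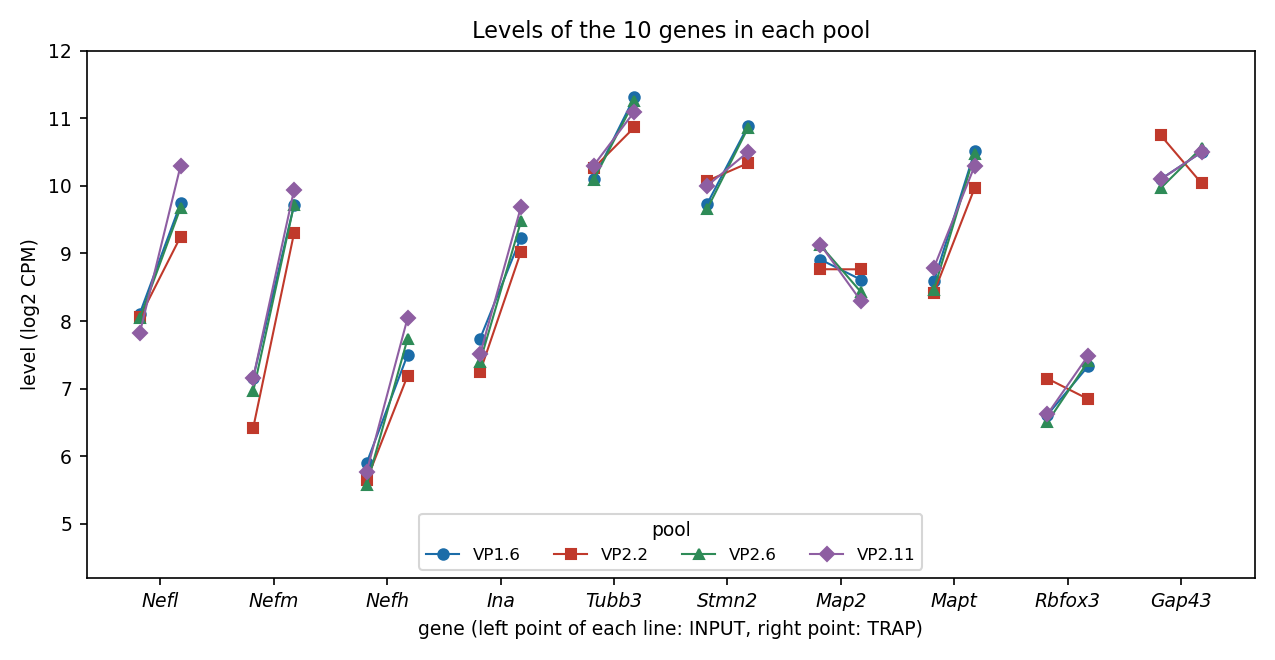
Level of each of the 10 genes in log2 CPM, 1 line per pool from the INPUT library (left point) to the TRAP library (right point). Lines of the 4 neurofilament genes and Mapt climb steeply in all 4 pools, those of Map2 are flat or fall, and in Rbfox3 and Gap43 the VP2.2 line falls while the other 3 climb.

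The 4 neurofilament genes rose together, by 1.74 to 2.75 on the log2 scale, or 3.33-fold to 6.70-fold. Nefm, the medium chain on the minus strand of chromosome 14 (chr14:68082590-68124846, GRCm38), was at 9.72, 9.30, 9.72 and 9.94 log2 CPM in TRAP of VP1.6, VP2.2, VP2.6 and finally VP2.11, the order used for all such values below. Its INPUT values were 7.16, 6.42, 6.96 and 7.16. The fractions lay far apart, and every pool showed nearly the same step, of 2.56 to 2.88. The mean was 825 ± 145 CPM in TRAP and 124 ± 27.1 in INPUT (SD, n = 4), a log2 difference of 2.75 ± 0.21 (SE, limma, adjusted p = 7.0e-07). Nefm stood at rank 35 of the 14249 genes ordered from the highest difference down, and Slc17a6 at rank 46.

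Nefl, the light chain that neurofilaments need in order to assemble, lies beside Nefm on the plus strand (chr14:68083863-68089095). Its levels were 9.74, 9.25, 9.68 and 10.30 log2 CPM in TRAP and 8.11, 8.06, 8.04 and 7.82 in INPUT. The INPUT libraries were close to each other, while TRAP ranged widely, with VP2.2 lowest and VP2.11 highest. The mean was 886 ± 272 CPM in TRAP and 258 ± 22.0 in INPUT, a log2 difference of 1.74 ± 0.25 (SE, adjusted p = 2.1e-04), and the pool differences ran from 1.19 to 2.48. In the annotation, exons of Nefl and Nefm share 1108 bases on opposite strands, 32.8% of the exon bases of Nefl and 19.2% of those of Nefm. The strand setting of the authors' counting is not given in the sources used here, and reads that fit both genes were not counted, so both levels may be low by an unknown share.

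Nefh, the heavy chain (chr11:4938754-4948064, minus strand), was the least abundant of the neurofilament genes per kb of exon. It was at 7.50, 7.19, 7.74 and 8.04 log2 CPM in TRAP and at 5.90, 5.65, 5.57 and 5.77 in INPUT. All TRAP libraries exceeded all INPUT libraries, and the steps in VP2.6 and VP2.11 were larger than those in VP1.6 and VP2.2. The mean rose from 53.0 ± 5.37 CPM in INPUT to 201 ± 50 in TRAP, a log2 difference of 1.89 ± 0.22 (SE, adjusted p = 4.2e-05).

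Ina, which encodes alpha-internexin (chr19:47014698-47025327, plus strand), moved almost in step with Nefh. Its levels were 9.24, 9.02, 9.47 and 9.69 log2 CPM in TRAP and 7.74, 7.25, 7.40 and 7.51 in INPUT. The fractions did not overlap, and the differences in the 4 pools were 1.5, 1.77, 2.07 and 2.18. The mean was 665 ± 133 CPM in TRAP and 179 ± 26.0 in INPUT, and the log2 difference was 1.88 ± 0.22 (SE, adjusted p = 4.5e-05). Its exons share 456 bases, 14.1% of their length, with Nt5c2 on the other strand.

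Tubb3 encodes the beta-tubulin of class III, whose presence is a usual sign of a neuron (chr8:123411424-123422015, plus strand). It was at 11.31, 10.87, 11.26 and 11.10 log2 CPM in TRAP and 10.10, 10.26, 10.09 and 10.30 in INPUT. TRAP was above INPUT in every library, with the smallest step, 0.61, in VP2.2 and the largest, 1.21, in VP1.6. Tubb3 rose from 1168 ± 88.8 to 2265 ± 303 CPM, 1.93-fold, a log2 difference of 0.95 ± 0.26 (SE, adjusted p = 0.012). Without VP1.6 the adjusted p was 0.094 and without VP2.6 it was 0.084, with log2 differences of 0.86 and 0.87, close to the 0.95 of all 4 pools.

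Stmn2, a stathmin that binds tubulin dimers and acts in growing and regenerating axons (chr3:8509360-8561606, plus strand), behaved much like Tubb3. It was at 10.88, 10.34, 10.85 and 10.50 log2 CPM in TRAP and 9.73, 10.07, 9.65 and 10.00 in INPUT. The fractions stayed apart, though the step was 0.26 in VP2.2 and 0.50 in VP2.11 against 1.15 and 1.20 in VP1.6 and VP2.6. Stmn2 rose 1.72-fold, from 939 ± 132 to 1620 ± 296 CPM, with a log2 difference of 0.78 ± 0.26 (SE, adjusted p = 0.035). Its adjusted p rose to 0.195 without VP1.6, 0.201 without VP2.6 and 0.064 without VP2.11, and it was 0.058 and 0.065 when libraries were centred on their medians or upper quartiles.

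Mapt, which encodes tau (chr11:104231390-104332090, plus strand), rose within the range of the neurofilament genes. It was at 10.51, 9.97, 10.48 and 10.30 log2 CPM in TRAP and 8.59, 8.42, 8.47 and 8.79 in INPUT. Every TRAP library exceeded every INPUT library by more than 1 log2 unit. The mean was 1288 ± 208 CPM in TRAP and 381 ± 44.8 in INPUT, a 3.36-fold rise with a log2 difference of 1.75 ± 0.23 (SE, adjusted p = 1.2e-04).

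Map2, which encodes the dendritic counterpart of tau (chr1:66175273-66442583, plus strand), did not share this rise. It was at 8.61, 8.77, 8.42 and 8.29 log2 CPM in TRAP and 8.91, 8.77, 9.12 and 9.13 in INPUT. No pool had it higher in TRAP, and the fractions were equal to 2 decimals in VP2.2. The mean was 371 ± 53.6 CPM in TRAP and 508 ± 60.7 in INPUT. The log2 difference of -0.46 ± 0.23 (SE) did not pass with the block (adjusted p = 0.14), but it passed without the block (0.027), with library quality weights (0.036) and without VP2.2 (0.030). With the trend of the difference on exon length taken out it was -1.02 (adjusted p = 0.0016). Differences rose with exon length over all genes (Spearman's rho = 0.412), and the 10 genes differ widely in length.

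Rbfox3, the gene for the splicing regulator NeuN (chr11:118489762-118911597, minus strand), split by pool. Its levels were 7.33, 6.84, 7.41 and 7.49 log2 CPM in TRAP and 6.61, 7.15, 6.50 and 6.62 in INPUT. It was higher in TRAP in 3 pools, by 0.72 to 0.90, and lower in VP2.2, by -0.30, where INPUT was high and TRAP low. The log2 difference was 0.55 ± 0.24 (SE, adjusted p = 0.095), and without VP2.2 it was 0.83 (adjusted p = 0.0048). Without the block the adjusted p was 0.032. The means were 156 ± 28.6 CPM in TRAP and 107 ± 23.4 in INPUT.

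Gap43, a substrate of protein kinase C at growth cones and presynaptic endings (chr16:42248442-42340651, minus strand), showed the same split. It was at 10.50, 10.04, 10.57 and 10.50 log2 CPM in TRAP and 10.10, 10.75, 9.97 and 10.10 in INPUT. In VP2.2 it was lower in TRAP by -0.71, and in the other pools it was 0.40 to 0.60 higher. The means of 1365 ± 212 CPM in TRAP and 1229 ± 330 in INPUT overlapped, with a log2 difference of 0.17 ± 0.28 (SE, adjusted p = 0.67). It was 0.47 without VP2.2 (adjusted p = 0.10) and 0.66 with the length trend taken out (adjusted p = 0.034).

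The size of the differences varied by pool. The median difference of the 10 genes was 1.36 in VP1.6, 0.90 in VP2.2, 1.42 in VP2.6 and 1.19 in VP2.11, and 9, 7, 9 and 9 of the 10 were higher in TRAP. The mean over the 4 neurofilament genes was 1.82, 1.85, 2.16 and 2.43. The difference of Slc17a6 was 2.78, 3.17, 2.40 and 1.84. VP2.2 was the pool with the lowest GABAergic marker sum in INPUT, and Gad1, an enzyme of GABA synthesis, was 1.66 higher in TRAP there against -0.30 to -0.03 in the other pools. Gad2 was 1.29 higher there against -0.88 to -0.29. The third GABAergic marker, Slc32a1, went the other way and was lower in TRAP in all 4 pools (-0.60 in VP2.2). Whether the tissue taken for VP2.2 differed was not tested.

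Levels can be set against each other within a library. Between-gene comparisons were made as log2 ratios, with an exact permutation test that swaps the fractions within pools. With 4 pools that two-sided exact test cannot go below p = 0.125, so no ratio could reach 0.05, and 8 ratios were compared. The ratio of Map2 to Mapt differed most between the fractions: it was 0.42 in INPUT and -1.79 in TRAP, a shift of -2.21 ± 0.48 (SD of 4 pools, range -2.71 to -1.56, exact p = 0.125, 0.25 after Benjamini-Hochberg adjustment). The ratio of MAP2 to tau mRNA was thus 4.62-fold lower in TRAP, and it was lower in all 4 pools.

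Relative to the other 3 subunits, the medium chain was higher in TRAP than in INPUT in all 4 pools. Nefm relative to Nefl was -1.08 in INPUT and -0.07 in TRAP, a shift of 1.01 ± 0.57 that was positive in all 4 pools (0.30 to 1.69). Nefh relative to Nefm shifted by -0.85 ± 0.38 and Ina relative to Nefm by -0.86 ± 0.26, both negative in all 4 pools (exact p = 0.125 and adjusted p = 0.25 for each of the 3 ratios). The ratio of Ina to Nefh was 1.75 in INPUT and 1.74 in TRAP, a shift of -0.01 ± 0.16 (exact p = 1). Nefh and Ina relative to Nefl shifted by 0.16 and 0.14, with 2 pools in each direction (exact p = 0.5). Stmn2 relative to Tubb3 shifted by -0.17 ± 0.18 (exact p = 0.25). With the trend of differences on exon length taken out, the shifts were -2.50 for Map2 relative to Mapt, 0.74 for Nefm relative to Nefl, -0.66 and -0.58 for Nefh and Ina relative to Nefm, 0.08 for Ina relative to Nefh, 0.08 and 0.16 for Nefh and Ina relative to Nefl, and -0.71 for Stmn2 relative to Tubb3.

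**Figure D2:**
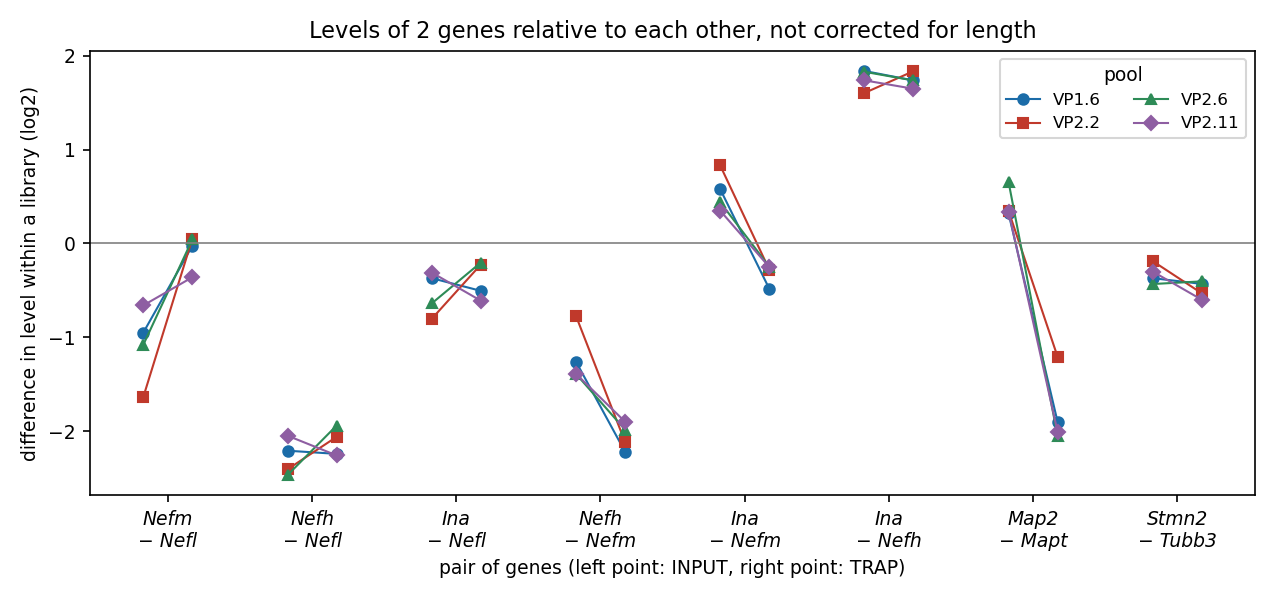
Difference in log2 level between the members of 8 gene pairs within each library, not corrected for length, 1 line per pool from INPUT (left point) to TRAP (right point). All 4 lines fall for Map2 relative to Mapt and for Nefh and Ina relative to Nefm, all 4 rise for Nefm relative to Nefl, and those of Ina relative to Nefh stay between 1.6 and 1.84.

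Per length, as CPM per kb of annotated exon, Tubb3 and Gap43 led both fractions. In TRAP the order was Tubb3 (1212 ± 162 CPM per kb), Gap43 (897 ± 139), Stmn2 (289 ± 52.8), Nefl (262 ± 80.6), Ina (205 ± 40.9), Mapt (171 ± 27.6), Nefm (143 ± 25.0), Nefh (50.2 ± 12.5), Rbfox3 (26.9 ± 4.92) and Map2 (22.5 ± 3.26), as mean and SD of 4 libraries. Within a library each gene exceeded the next in all 4 libraries, except that Stmn2 against Nefl, Ina against Mapt, Mapt against Nefm and Rbfox3 against Map2 held in 3 of 4. In INPUT, Gap43 came first (807 ± 216 CPM per kb) and Tubb3 second (625 ± 47.6), in all 4 libraries. Map2 stood above Nefm there (30.9 ± 3.69 against 21.4 ± 4.68 CPM per kb), the reverse of their order in TRAP, and Nefh was last at 13.3 ± 1.34. The length chosen changed several places. With the longest transcript in place of all exons, the order in TRAP below Tubb3, Gap43, Stmn2 and Nefl was Mapt (245 CPM per kb), Nefm (224), Ina (205), Map2 (59.2), Nefh (50.2) and Rbfox3 (49.6), with Nefm above Ina in all 4 libraries. In INPUT, Map2 (81.2 CPM per kb) then came next after Stmn2, above Nefl (76.3) in 2 of 4 libraries, and Rbfox3 (34.0) stood above Nefm (33.7) in the mean but in 1 of 4 libraries.

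The likeness of 2 genes was measured as the root mean square distance between their differences over the 4 pools, as a description. Nefh and Ina were the closest of the 45 pairs (0.14 log2 units), followed by Tubb3 and Stmn2 (0.23), and Nefm and Map2 the farthest apart (3.22). Among 8725 genes with a mean of at least 10 CPM, the 10 members left out, those nearest to Ina were Lars, a leucyl-tRNA synthetase (0.21), App, the amyloid precursor protein (0.22), and Smap1 (0.23). Smap1 and Lars were also near Nefh (0.20 and 0.30), with Mthfd1l, a mitochondrial folate enzyme, nearest (0.20). Epha10, of the ephrin receptor family (0.19), Sh2d3c (0.23) and Susd2 (0.27) were nearest to Nefl. Nefm had no such close neighbour: Chl1, an adhesion molecule of the L1 family, stood at 0.40, Smc1a, a cohesin subunit, at 0.44 and Tpp2, a peptidase, at 0.47.

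Related genes were read from 10 lists of 118 genes in all, of which 112 were tested. In these lists 48 genes were called higher in TRAP, 3 lower and 61 were not called, beside 15.4% higher and 16.8% lower over all genes. The genes that fell were Gfap, Map6d1 and Svbp.

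Of the other intermediate filament and linker genes, 2 of 8 rose and 1 fell, with a median difference of 0.54. Synm, which encodes the filament protein synemin, rose by 1.25 ± 0.27 on the log2 scale (SE, adjusted p = 0.0034), from 9.01 ± 2.34 to 20.9 ± 0.83 CPM, and Lmna, a nuclear lamin, by 0.71 ± 0.25 (adjusted p = 0.043). Gfap, the astrocyte filament, fell by 1.65 (adjusted p = 9.0e-04), from 53.5 ± 12.9 to 17.5 ± 6.44 CPM. Gfap is 1 of the 5 astrocyte markers summed above, and 3 of the other 4 also fell.

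Of 12 other tubulin genes, 8 rose and 0 fell, with a median difference of 0.99. Tuba1a, the highest in TRAP by CPM among those called, rose by 1.17 ± 0.31 (adjusted p = 0.010), from 2460 ± 387 to 5571 ± 1162 CPM. The highest difference was that of Tubb4b (1.65 ± 0.24, adjusted p = 2.6e-04) and the lowest among those called that of Tubb2b (0.82 ± 0.22, adjusted p = 0.012). Tubulin genes are near copies of each other, and the authors counted unique reads, so the split between them is uncertain. Stmn1, the ubiquitous stathmin, was the 1 of 3 other stathmins that rose (1.16 ± 0.31, adjusted p = 0.011), from 1282 ± 296 to 2904 ± 835 CPM.

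Among other microtubule-associated proteins 8 of 22 rose and 1 fell, and the median difference was 0.51. Map9 rose by 1.34 ± 0.22 (adjusted p = 5.2e-04) and Dclk1, a doublecortin-like kinase, by 1.13 ± 0.22 (adjusted p = 0.0017), to 720 ± 71.1 CPM in TRAP. Map6d1, a relative of the microtubule stabiliser MAP6, fell by 0.94 (adjusted p = 0.013). Of 12 genes for enzymes that modify tubulin or for their partners, the tubulin-modifying list, 3 rose and 1 fell. Agbl4, which trims glutamates, rose by 1.4 ± 0.25 (adjusted p = 9.6e-04), and Ttll7, which adds them, by 1.05 ± 0.24 (adjusted p = 0.0041). Svbp, the small partner of the vasohibins that remove the last tyrosine of alpha-tubulin, fell by 1.76 (adjusted p = 4.5e-04), from 24.4 ± 4.48 to 7.21 ± 1.45 CPM. Of 10 genes for kinases that act on tau and MAPs or for kinase activators, the kinase list, 2 rose. These were Mark1, by 0.86 ± 0.23 (adjusted p = 0.011), and Mark2, by 0.73 ± 0.23 (adjusted p = 0.025).

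Growth cone genes, the company of Gap43, rose in 5 of 10 cases and fell in 0, with a median difference of 0.76. Those not called were Basp1 (-0.04), Marcks (-0.23), Marcksl1 (-0.07), Palm (0.05) and Dpysl2 (0.59), beside 0.17 for Gap43. Dpysl3 and Crmp1, collapsin response mediators, rose by 1.58 ± 0.24 (adjusted p = 2.9e-04) and 1.24 ± 0.20 (adjusted p = 5.4e-04), and Gprin1 rose by 0.92 ± 0.26 (adjusted p = 0.015). Neuronal RNA-binding proteins, the company of Rbfox3, rose in 6 of 11 cases and fell in 0, with a median of 0.81. Elavl4, or HuD, rose by 1.64 ± 0.23 (adjusted p = 1.8e-04), Rbfox1, the paralog of Rbfox3, by 0.87 ± 0.22 (adjusted p = 0.0083) and Celf2 by 0.81 ± 0.21 (adjusted p = 0.011).

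Of the spectrin, ankyrin and related genes of the axonal membrane skeleton, 6 of 12 rose and 0 fell, with a median of 0.51. Nfasc, the neurofascin of the axon initial segment and node, rose by 1.16 ± 0.22 (adjusted p = 0.0015), Add1, an adducin, by 0.91 ± 0.22 (adjusted p = 0.0065) and Epb41l3 by 0.61 ± 0.21 (adjusted p = 0.038). Of 12 further pan-neuronal genes, 7 rose and 0 fell, with a median of 1.00. Snap25, a synaptic SNARE protein, rose by 1.93 ± 0.39 (adjusted p = 0.0020), from 5174 ± 2056 to 18607 ± 3161 CPM, and Syn2, a synapsin, by 0.93 ± 0.22 (adjusted p = 0.0056).

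Most of these medians moved when the length trend was taken out. They were then 0.10 for intermediate filament and linker genes, 1.20 for tubulins, 1.27 for stathmins and 0.18 for microtubule-associated proteins. The tubulin-modifying list came to 0.07 and the kinase list to 0.06. They were 0.73 for growth cone genes, 0.30 for RNA-binding proteins, -0.13 for the axonal membrane skeleton and 0.80 for the further pan-neuronal genes. Named genes moved as well, and the difference of Celf2 became 0.10.

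**Figure D3:**
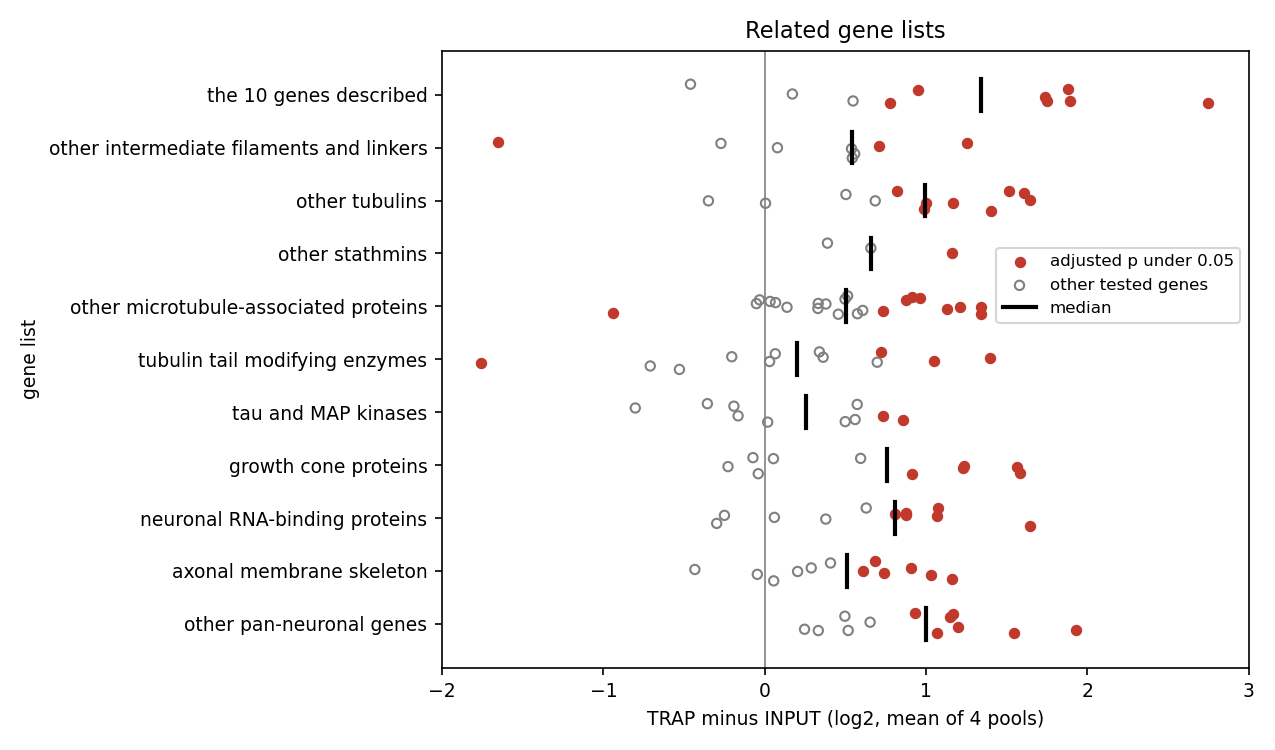
TRAP minus INPUT difference (log2, mean of 4 pools) of every tested gene of the 10 genes described here and of 10 related lists, with red points for an adjusted p under 0.05 (limma, pool as a block), open points for other genes and a black bar for the median. The medians of the related lists lie between 0.20 and 1.00, and the median of the 10 genes is 1.34.

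Promoter sequence was compared between members that rose and Map2, which did not pass. RefSeq windows (GRCm38.p6) were at hand for 4 of the 10 genes, Map2, Tubb3, Rbfox3 and Ina. Only the 3 on the plus strand, those of Map2, Tubb3 and Ina, were read, and that of Rbfox3, on the minus strand, was not. Each window reaches 250 bases ahead of the RefSeq start. Read were only those that also lie ahead of the start of the annotated gene. For Tubb3 and Map2 the bases read stop short of the RefSeq start. Those bases are shown 5′ to 3′ on the plus strand, in lower case with each GC box, GGGCGG or its complement CCGCCC, in capitals. They cover chr19:47014431-47014680 for Ina, chr8:123411303-123411423 for Tubb3 and chr1:66175079-66175272 for Map2.
Ina: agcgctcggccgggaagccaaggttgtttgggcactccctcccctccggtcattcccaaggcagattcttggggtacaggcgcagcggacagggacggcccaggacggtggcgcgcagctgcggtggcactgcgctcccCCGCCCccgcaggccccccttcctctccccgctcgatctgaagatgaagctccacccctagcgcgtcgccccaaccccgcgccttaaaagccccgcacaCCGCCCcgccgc
Tubb3: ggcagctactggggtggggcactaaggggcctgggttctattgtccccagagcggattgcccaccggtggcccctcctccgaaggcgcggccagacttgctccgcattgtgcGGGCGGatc
Map2: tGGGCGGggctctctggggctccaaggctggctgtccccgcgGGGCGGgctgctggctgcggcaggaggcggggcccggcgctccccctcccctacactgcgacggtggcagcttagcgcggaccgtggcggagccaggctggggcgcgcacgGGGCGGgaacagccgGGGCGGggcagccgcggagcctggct

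All 3 windows were rich in G and C. GC made up 70.8% of the 250 bases of Ina, 67.8% of the 121 bases of Tubb3 and 79.4% of the 194 bases of Map2, against medians of 52.4%, 50.4% and 51.5% over the same stretch of all 32851 windows. CpG pairs numbered 25, 8 and 22, against medians of 6, 2 and 4. The GC box was found 2, 1 and 4 times, and 32.7%, 12.9% and 23.6% of all windows of these lengths hold at least 1. In all windows the same stretch was the first bases, which at the lengths of Tubb3 and Map2 lie away from the RefSeq start. On either strand, the TATA box (TATAAA), the CCAAT box (its name being its letters), the E-box searched (CACGTG) and the left part of the RE1 element (TTCAGCACC) were not found in the bases read. A motif next to the RefSeq start of Tubb3 or Map2 could not be found, as those bases were not searched. Of all windows over the same stretch, 10.7% hold at least as many CpG pairs as that of Ina, 18.5% as that of Tubb3 and 6.66% as that of Map2.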

How the data were processed

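The authors aligned reads with STAR 2.5.1a, counted unique reads per gene with featureCounts against Ensembl, scaled libraries by TMM in edgeR and deposited log2 CPM values per gene and library, which were used here as log2. They also fitted limma with voom and quality weights. Their own log2 fold changes, linear fold changes and p-values in the table were not used. The table held 14398 entries. Of these, 45 repeated a gene and were left out. Positions and exon lengths came from GENCODE M21 (GRCm38), which matched all 14353 genes by identifier.

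The 14249 genes that 3 or more libraries held at over 1 CPM were compared with limma 3.58.1 in R 4.3.3 (lmFit, then eBayes with a trend), with the pool as a block and Benjamini-Hochberg adjustment over all genes tested. The fit was tested on simulated data in which both libraries of a pool moved together. That run does not test the fit under the opposed deviations described next. Labels give TRAP and INPUT of a pool the same number and mice, and both come from 1 homogenate, which pairs them. Their deviations from the fraction means correlated at -0.745 to -0.495 across genes, against 0.0457 to 0.441 for different pools. Such deviations cancel over the pools of a fraction, so the ranges are not independent of each other. The pairing rests on the labels and not on these correlations. For each of the 10 genes the SE was larger with the block than without it (0.231 against 0.149 for Map2). Pools hold separate mice, so the pool is the unit behind the p-values. The fit takes out pool levels and draws each gene's variance towards a trend over all genes. An SE is thus not the spread of a gene's own pool differences alone. For Nefm the SD of those differences was 0.137 and the limma SE 0.211.

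The 10 genes and the lists were chosen with earlier results of these data known. Named from each list were the called genes with the highest and lowest differences and the called gene most abundant in TRAP. For each neurofilament gene the 3 nearest genes were named. Both libraries of VP2.11 and the INPUT library of VP1.6 were deposited with 3 significant digits, an error of up to 0.05 log2 units for values of 10 or more. Whole reads were found for 52.0% of 1614 low genes in VP2.2 and 75.9% of 1821 in VP2.6 (tolerance 2e-05 log2 units). The ratio with the most matches among those tried was kept, and the rate of matches by chance was not computed. The depth of VP1.6 and VP2.11 is unknown. No count test was run.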

Additional observations from a re-analysis of the deposited data

Results flagged for a closer look

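A library far from the other 3 of its fraction was sought for each gene named, in 94 groups of 4, of which chance flags about 4.7. Standing apart were 8 values, 2 of them among the 20 groups of the 10 genes. Gap43 was low in TRAP VP2.2, at 10.04 log2 CPM against 10.50 to 10.57, and high in INPUT VP2.2, at 10.75 against 9.97 to 10.10. Ttll7 was low in INPUT VP2.2 (6.40 against 7.22 to 7.30). In VP2.11, TRAP was high for Add1 (8.88 against 8.40 to 8.45), Epha10 (5.18 against 3.71 to 3.92) and Sh2d3c (4.89 against 3.81 to 3.97), and INPUT was high for Agbl4 (3.75 against 3.20 to 3.25) and Tubb4b (8.56 against 8.02 to 8.08). Epha10 and Sh2d3c were named as near neighbours of Nefl, which also had its highest TRAP level in VP2.11. Both were chosen for pool differences like those of Nefl, so a high value in VP2.11 was in part selected for. The number of flags given for chance does not allow for genes chosen in this way.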

How the results depend on the processing

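No gene of the 10 changed the sign of its difference under 14 alternatives. Nefl, Nefm, Nefh, Ina and Mapt were called in all 14, Tubb3 in 12, Stmn2 in 7, Map2 in 5, Rbfox3 in 3 and Gap43 in 2. Fits without the replicate block called 9 of the 10 and 6830 genes in all, against 7 and 4592 with it. Without the block, 4 other intermediate filament and linker genes and 3 other stathmins were called higher (2 and 1 with it). So were 12 microtubule-associated proteins (8 with it), 10 tubulins (8), 8 RNA-binding proteins (6) and 9 further pan-neuronal genes (7). Growth cone genes went from 5 to 6 and the kinase list from 2 to 3. The tubulin-modifying list stayed at 3 and the axonal membrane skeleton at 6. On the tubulin-modifying list 2 genes and on the kinase list 2 genes were then called lower (1 and 0 with it). With no length correction, the block changed the calls of Rbfox3 and Map2 among the 10. With the length trend taken out it changed that of Stmn2 (adjusted p = 0.056 with it, 0.017 without). Fits that each left out a pool called 5 to 9 of the 10 and 3232 to 4156 genes. A fold change of at least 1 on the log2 scale beside the threshold left 5 of the 10 and 3112 genes. A fit with the length trend taken out and no block was added after seeing the data and called 9 and 6479. The cause of these changes was not tested. CPM per kb moved with the length used for Nefm, Stmn2, Map2, Mapt and Rbfox3. Without total counts, counting error per gene cannot be given.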
